A study of Mus musculus with 18 samples.

Results

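The 144 genes described here were the protein-coding genes of mouse chromosome 1 that started between 70 and 100 Mb (mm10) and had at least 180 estimated counts summed over the 18 samples of the series, with 1 gene left out by name. The table held 20615 genes, 288 of them in this 30 Mb, and 180 of those were protein-coding. The minimum sum removed 35 of the 180. The genes nearest to it were Sag, Dner and Klhl30 on the outside, at 102, 146 and 147 estimated counts, and Ano7, Catip and Tmem198 on the inside, at 191, 230 and 247. All 144 genes passed the filter on low counts, so it removed none of them. The rule used position, gene class and total count and no difference between groups.

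The samples were bone marrow-derived macrophages (BMDMs) from female mice of 7 to 12 weeks, differentiated for 7 days with M-CSF from L929 supernatant and plated at 300000 cells per well. The control strain was C57BL/6 (B6). The other strain was C57BL/6.NOD-Aec1Aec2 (SjSS), a model of Sjögren's syndrome in which 2 diabetes susceptibility intervals of the NOD mouse, Idd3 (Aec1) and Idd5 (Aec2), were bred onto the B6 background, so every SjSS sample carried both intervals and no sample carried 1 alone. BMDMs of each strain were left untreated (control), treated with 1 µM CpG oligodeoxynucleotide for 6 h, or incubated for 2 h with dexamethasone-killed thymocytes (apoptotic cells, AC) at 5 per BMDM, washed, and kept for 3 h more, with 3 samples in each of the 6 groups. The 3 h are from the labels, and the methods text has 4 h. The mouse strain that gave the thymocytes for these cultures, and which mouse gave which sample, were not stated.

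A congenic strain carries the donor's DNA along an interval and the recipient's elsewhere, so genes inside the interval can differ through their own sequence, and genes anywhere can differ through what the interval's products do. The sources used here give no coordinates for the donor DNA of SjSS. Below, the interval means chromosome 1 from 70 to 100 Mb, and which of its genes carry donor DNA was not tested. This stretch holds the Sp100 family (Sp100, Sp110 and Sp140), chromatin-reading proteins of nuclear bodies whose genes are interferon-inducible and lie side by side. It also holds the Ugt1a locus, in which alternative first exons join shared downstream exons to make UDP-glucuronosyltransferases. These enzymes couple glucuronic acid to bilirubin, steroids and drugs. Macrophages normally clear apoptotic cells without strong inflammatory transcription, while CpG DNA is sensed through an endosomal Toll-like receptor.

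The libraries held 30688336 to 57139662 estimated counts, and the 144 genes took 0.835% of them. All 7 macrophage markers, among them Adgre1, Csf1r and Lyz2, were present in every group, with summed levels of 14800 to 22800 CPM (counts scaled by the effective library size). Of 11 T lineage and thymocyte markers, Cd3d, Cd3e and Cd3g reached at most 0.103, 0.107 and 0.181 CPM. The sum of that list was 4.47 to 4.86 CPM in B6 AC samples and 13.5 to 18.2 CPM in SjSS AC samples. Most of it was Cd4, which ranged from 3.36 to 17.1 CPM over all samples. Untreated samples, given no thymocytes, had sums of 7.91 to 10 CPM in B6 and 10.2 to 11.6 CPM in SjSS. With CpG the sums were 4.88 to 6.2 and 6.47 to 8.48 CPM. The list's thymocyte markers Rag1, Dntt and Cd8a were too low to be tested. Rag1 had 24 counts over the B6 AC group and 3 over the SjSS AC group, with 0 in every other group. Dntt had 18 and 1 counts over the AC groups, and Cd8a had 26 and 10. Summed fibroblast markers were 41.2 to 136 CPM in the B6 groups and 152 to 237 CPM in the SjSS groups. Most of each sum was Col1a1 and Col1a2. The next highest markers of that list, Col3a1 and Pdgfrb, overlapped between strains in every treatment. The part of these other cell types in the strain differences was not tested. In bulk samples, fewer cells of a type and less RNA per cell cannot be told apart. Reads of both strains were aligned to mm10, which is the B6 sequence, and the part of NOD sequence differences in the counts was not tested.

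Strain differences were first counted over the whole interval. A gene was called where edgeR's quasi-likelihood test gave an adjusted p under 0.05, over 15789 genes, and the log2 fold change of SjSS over B6 exceeded 1.3 in size. Untreated BMDMs gave 13 called genes of 144 (9.03%), 11 higher and 2 lower in SjSS, where 2.01% of all genes tested were called, 1.3% higher and 0.716% lower. After AC treatment 24 were called (16.7%), 18 higher and 6 lower, against 8.93% of all genes, 6.24% higher and 2.69% lower. After CpG treatment 15 were called (10.4%), 10 higher and 5 lower, against 2.61% of all genes, 1.82% higher and 0.792% lower. The 3 comparisons shared no sample. Between them they called 32 genes at least once and 112 never, and 14 were called after AC treatment alone, which is no test of a difference between treatments. By adjusted p alone, 46, 84 and 61 of the 144 genes differed (31.9%, 58.3% and 42.4%), against 19.6%, 49.4% and 19.7% of all genes. These were 26 higher and 20 lower untreated (9.04% and 10.6% of all genes), 41 and 43 with AC (24% and 25.5%), and 32 and 29 with CpG (10.2% and 9.57%).

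Called genes were unevenly spread along the interval. In the 5 Mb from 85 to 90 Mb, which held 38 of the genes, 10 were called untreated, 13 with AC and 9 with CpG (26.3%, 34.2% and 23.7%). The 5 Mb from 90 to 95 Mb held 37 genes and gave 0, 3 and 2 calls. At 70 to 75 Mb, 1, 1 and 2 of 26 genes were called, at 75 to 80 Mb 1, 5 and 1 of 27, at 80 to 85 Mb 1, 2 and 1 of 10, and the 6 genes of 95 to 100 Mb gave none in any of the 3 comparisons. Taken as 10 Mb, the stretch from 80 to 90 Mb held 11, 15 and 10 of the called genes among 48, and the 96 genes on its sides held 2, 9 and 5 (2.08%, 9.38% and 5.21%). The first 2 of these shares lay near the 2.01% and 8.93% over all genes tested. Fn1 was the first gene called along the interval untreated and with CpG, and Igfbp5 the first with AC. The last ones were Agap1 untreated, Ano7 with AC and Fam132b with CpG. The Ano7 call was lost without B6 AC replicate 3 (-1.29), SjSS AC replicate 1 (-1.5) or SjSS AC replicate 3 (-1.68). The Fam132b call was lost without B6 CpG replicate 1 (1.42), B6 CpG replicate 2 (1.16) or SjSS CpG replicate 1 (1.27), and when the CpG samples were fitted alone (1.51).

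**Figure D1:**
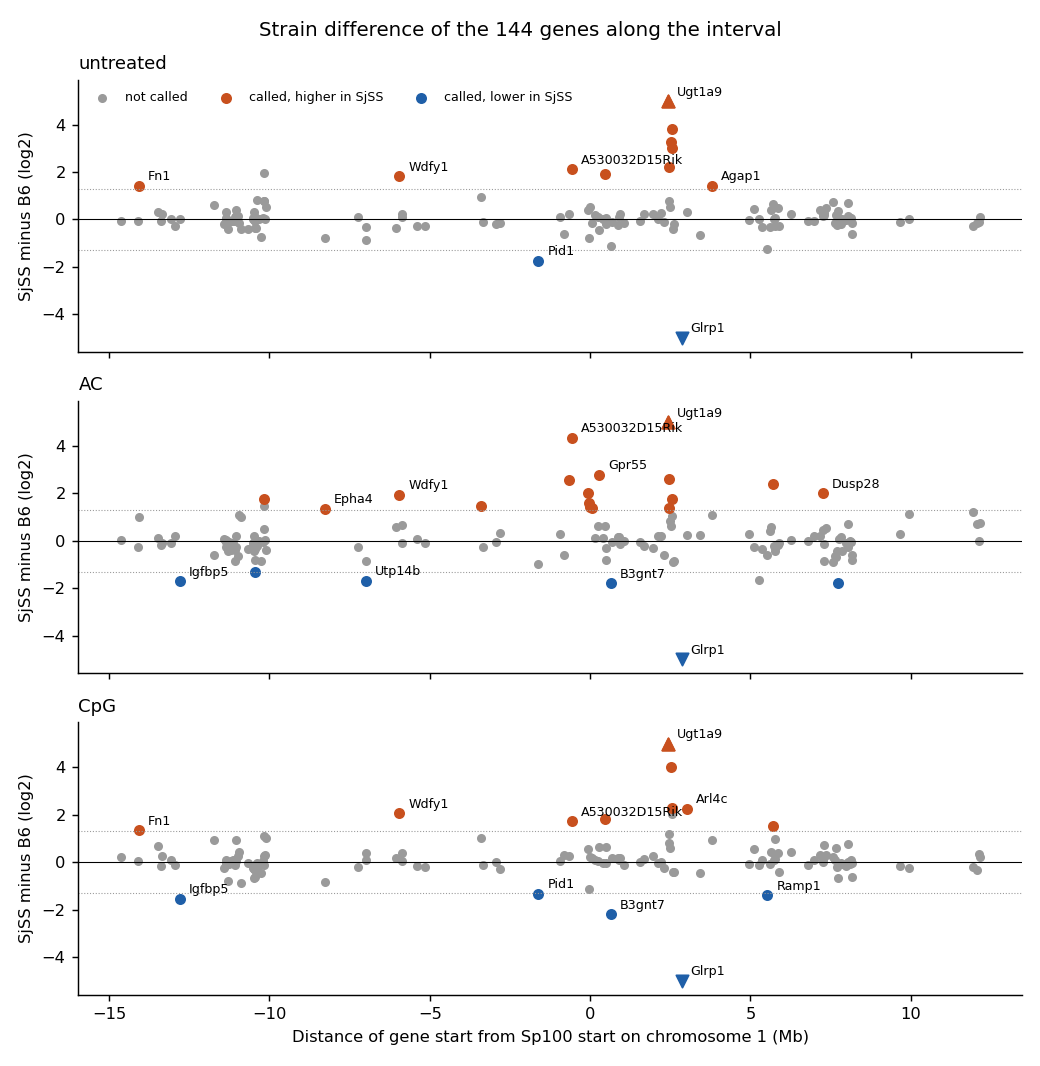
Log2 difference of SjSS over B6 BMDMs (vertical axis) for each of the 144 genes against the distance of its start from the Sp100 start in Mb (horizontal axis), in untreated, AC and CpG samples. Dotted lines mark 1.3, triangles mark called genes beyond the axis, and the called genes crowd from just left of Sp100 to a few Mb right of it.

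**Figure D2:**
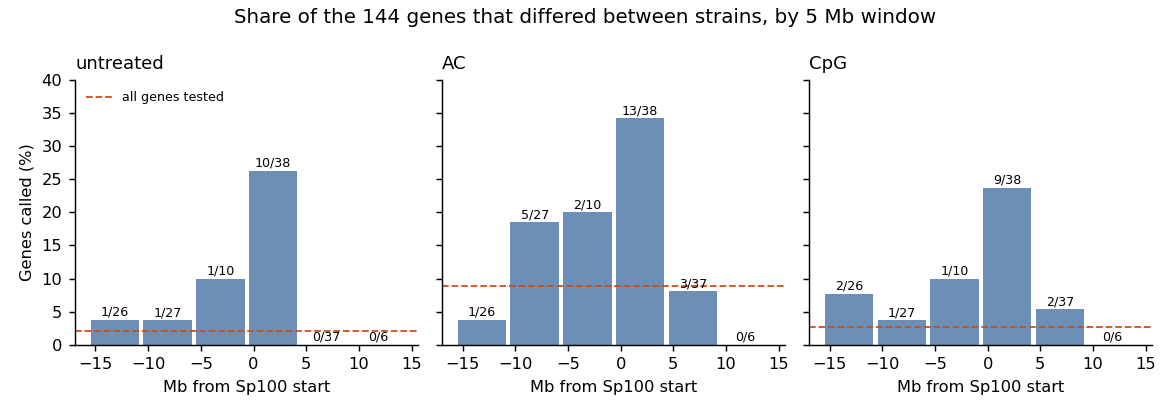
Share of the 144 genes called in each 5 Mb window (bars, with called genes over genes in the window) against the window's distance from the Sp100 start, and the share over all genes tested (dashed line). The window from 85 to 90 Mb was highest in all 3 comparisons, at 26.3%, 34.2% and 23.7%.

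Much of the count between 80 and 90 Mb came from a pair of gene clusters. With the 7 genes from C130026I21Rik to Cab39 around Sp100 and the 8 Ugt1a genes set aside, a choice made after their values were seen, 4, 4 and 5 of the other 33 genes from 80 to 90 Mb were called (12.1%, 12.1% and 15.2%). Over the whole interval the calls then fell to 6, 13 and 10 of 129 genes (4.65%, 10.1% and 7.75%). The AC share was then near the 8.93% of all genes tested, and the others stood beside 2.01% and 2.61%.

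The 15 Mb of chromosome 1 that end at 180 Mb, with 116 protein-coding genes chosen the same way, and chromosome 3 from 30 to 110 Mb, with 410, were set beside the interval. Their called shares were 13.8%, 25% and 19% for the first and 4.88%, 10.2% and 6.83% for the second, untreated, with AC and with CpG. Outside chromosomes 1 and 3 the shares were 1.39%, 8.26% and 1.91%. The 9.03%, 16.7% and 10.4% of the 70 to 100 Mb genes lay between the values of the other 2 stretches in all 3 comparisons, a difference that was not tested. On chromosome 1 as a whole, in 10 Mb windows of all genes tested, the largest shares were at 80 to 90 Mb (26, 33 and 24 of 80) and at 170 to 180 Mb (22, 41 and 26 of 123). These windows include genes that are not protein-coding. At 80 to 90 Mb, 11, 13 and 9 of the calls were such rows between C130026I21Rik and Sp110, described below.

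In all, 6 genes were called in the same direction in all 3 strain comparisons (4.17% of them, against 0.652% of all genes, 0.481% higher and 0.171% lower): Wdfy1, A530032D15Rik, Ugt1a9, Ugt1a8 and Ugt1a1 were higher in SjSS and Glrp1 was lower. By adjusted p alone 18 genes differed the same way in all 3 (12.5% against 3.18%), 12 higher and 6 lower (1.96% and 1.22% of all genes). Across the 144 genes, the fitted log2 differences untreated and with CpG had a Pearson r of 0.95 and a Spearman rho of 0.671. For untreated against AC these were 0.864 and 0.393, and for AC against CpG 0.867 and 0.406. Over all genes tested, untreated against CpG gave 0.593 and 0.411. There, untreated against AC gave 0.387 and 0.135, and AC against CpG 0.262 and 0.0157. The genes are not independent replicates, the same mice may stand behind all 3 comparisons, and Pearson's values lean on the few genes with very large differences.

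Wdfy1 encodes a WD-repeat and FYVE-domain protein of early endosomes that links Toll-like receptors 3 and 4 to the adaptor TRIF. Its gene lies at 79702262-79776144 on the minus strand. Untreated B6 samples read 15, 15.3 and 14.7 CPM and SjSS samples 57.1, 52.4 and 49.1. With AC the values were 12.8, 14.2 and 15.2 in B6 and 55.4, 52.3 and 54.3 in SjSS, and with CpG 9.21, 10.7 and 13.1 against 50.2, 45.5 and 42. No SjSS value came near a B6 value under any treatment. The log2 difference was 1.82 ± 0.10 (SE) untreated, 1.94 ± 0.10 with AC and 2.06 ± 0.10 with CpG (adjusted p 2.93e-10, 8.2e-12 and 6.43e-11, edgeR). Neither interaction with treatment was called, with 0.12 ± 0.14 for AC and 0.25 ± 0.14 for CpG (adjusted p = 0.525 and 0.339, edgeR). Wdfy1 overlaps Mrpl44 on the opposite strand, and no source used here states whether strand was counted.

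Agap1, an Arf GTPase-activating protein of endosomal traffic, stood at 40.4 to 42.2 CPM in untreated B6 samples and at 109 to 113 CPM in SjSS samples. It was at 48.2 to 61.2 against 115 to 117 CPM with AC and at 52.1 to 61 against 99.6 to 117 CPM with CpG. The strains did not overlap. The log2 difference was 1.42 ± 0.08 untreated, which was called, and 1.10 ± 0.08 and 0.94 ± 0.08 with AC and CpG, which passed the p threshold but not the fold (adjusted p 3.66e-10, 6.99e-10 and 8.35e-08, edgeR).

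Pid1, whose product binds the LDL receptor-related protein and dampens insulin signalling, went the other way. Untreated samples read 237, 232 and 211 CPM in B6 and 64.7, 69.2 and 69.4 in SjSS. The AC samples read 374, 348 and 371 against 164, 191 and 194, and the CpG samples 675, 631 and 570 against 226, 247 and 269. Every SjSS value was below every B6 value of the same treatment. The log2 difference was -1.74 ± 0.08, -0.99 ± 0.08 and -1.34 ± 0.08 (adjusted p 2.87e-11, 3.96e-09 and 8.58e-10, edgeR), so the AC difference missed the fold threshold. The CpG call was lost, at -1.28, when either B6 CpG replicate 1 or SjSS CpG replicate 1 was left out. Pid1 was higher with CpG than without it in both strains, by 1.46 ± 0.08 in B6 and 1.87 ± 0.08 in SjSS (adjusted p 8.24e-12 and 6.03e-13, edgeR).

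Fn1, which encodes the matrix protein fibronectin, read 98.4, 40.1 and 98.2 CPM in untreated B6 and 173, 224 and 236 in untreated SjSS samples. With CpG the samples read 67.3, 34.9 and 76.4 against 131, 156 and 166 CPM, and with AC 92.6 to 113 against 179 to 228. The groups did not overlap. The log2 difference was 1.42 ± 0.27, 1.00 ± 0.27 and 1.34 ± 0.27 for untreated, AC and CpG (adjusted p 0.0011, 0.00431 and 0.0016, edgeR), called in the first and the last. Replicate 2 of B6 was the lowest sample in both called comparisons, and without it the difference was 1.10 untreated and 1.07 with CpG, under the fold threshold. The CpG call was also lost without SjSS CpG replicate 3 (1.27). The fibroblast marker sum given above, mostly Col1a1 and Col1a2, was also higher in SjSS than in B6 samples in each treatment. Untreated, the sum was 45.1 to 136 against 167 to 232 CPM. Col3a1 and Pdgfrb overlapped between strains in every treatment. The part of fibroblasts in the Fn1 difference was not tested.

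Htr2b, a serotonin receptor, was at 0.688 to 1.15 CPM in untreated B6 and at 3.12 to 3.37 CPM in untreated SjSS samples, a log2 difference of 1.91 ± 0.30 (adjusted p = 0.000186, edgeR). With CpG it was at 0.262 to 0.825 against 1.35 to 2.36 CPM (1.82 ± 0.34, adjusted p = 0.000698, edgeR), and with AC at 0.927 to 1.52 against 1.52 to 2.06 CPM (0.64 ± 0.30, adjusted p = 0.0858, edgeR). Htr2b lies within Psmd1, a proteasome subunit gene on the opposite strand that was at 131 to 190 CPM. B3gnt7, an N-acetylglucosaminyltransferase that extends keratan sulfate, was lower in SjSS with AC (0.908 to 1.43 against 0.258 to 0.357 CPM, log2 difference -1.79 ± 0.39) and with CpG (1.57 to 3.33 against 0.292 to 0.594 CPM, -2.19 ± 0.35). Its adjusted p was 0.000785 and 0.000179 (edgeR), and untreated it was -1.13 ± 0.29 (adjusted p = 0.0113, edgeR), short of the fold threshold.

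The 8 Ugt1a genes tested start between 88070800 and 88211959 and end within the same shared exons, so the authors' E/M counting divided their reads among overlapping gene models and the level of each single gene is uncertain. Their sum depends less on that division. It was 266, 252 and 235 CPM in untreated B6 and 461, 459 and 427 CPM in untreated SjSS samples. With AC the sums were 233, 198 and 201 against 549, 565 and 542 CPM, and with CpG 289, 259 and 257 against 471, 486 and 461. The SjSS sum was above every B6 sum in all 3 treatments. Most of it was assigned to Ugt1a7c, whose log2 difference was 0.77 ± 0.07 untreated, 1.38 ± 0.08 with AC and 0.79 ± 0.07 with CpG (adjusted p 8.95e-07, 2.11e-11 and 6.04e-07, edgeR).

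Untreated, with AC and with CpG, 6, 5 and 4 of the 8 Ugt1a genes were called higher in SjSS, and none lower. Among all genes tested, 1.3%, 6.24% and 1.82% were called higher. The 8 genes share exons, so their calls are not separate results. Ugt1a9 and Ugt1a8 had 0 counts in all 9 B6 libraries. In SjSS, Ugt1a9 read 5.08, 2.78 and 4.57 CPM untreated, 6.61, 9.25 and 6.84 with AC and 4.27, 5.48 and 2.76 with CpG. Taking 3 counts over the 3 B6 libraries as the floor, it was at least 241-fold higher in SjSS untreated, at least 378-fold with AC and at least 184-fold with CpG. Ugt1a8 was at least 232-fold, 287-fold and 167-fold higher by the same floor. These bounds cover counting error only. Ugt1a6b was at 2.66 to 9.45 CPM in untreated B6 and 27.1 to 32.1 CPM in untreated SjSS samples (log2 difference 2.21 ± 0.24, adjusted p = 4.51e-06, edgeR). Ugt1a1, the bilirubin-conjugating form, read 0.448, 0.292 and 0.0888 CPM against 1.29, 3.43 and 2.18 untreated (3.01 ± 0.62, adjusted p = 0.0021, edgeR). Ugt1a5 and Ugt1a2, at under 2 CPM in every sample, were called untreated, and Ugt1a5 also with CpG. Untreated, both overlapped between strains. Their lowest SjSS values were 0.199 and 0.0296 CPM, and their highest B6 values 0.24 and 0.0888 CPM. The called differences of these genes rest on 5 to 20 counts over the B6 group. The Ugt1a5 calls were lost without any of several single samples. The Ugt1a1 call was lost with AC without B6 AC replicate 3 (1.49) or SjSS AC replicate 1 (1.27), and with CpG without B6 CpG replicate 1 (1.83) or SjSS CpG replicate 2 (1.74).

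Glrp1, a glutamine-repeat protein gene 2.85 Mb from Sp100, was the reverse. It read 0.64, 0.605 and 1.05 CPM in untreated B6 samples, 0.635, 0.681 and 0.891 with AC and 0.343, 0.639 and 0.761 with CpG. In SjSS it had 1 count in 1 untreated library and 0 in the other 8. The untreated counts of 128 and 1 gave a ratio of 110, with a 95% counting interval of 19.4 to 4380. SjSS was at least 31.8-fold lower with AC (108 counts in B6) and at least 24.5-fold lower with CpG (76 counts), by a floor of 3 counts over the group.

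**Figure D3:**
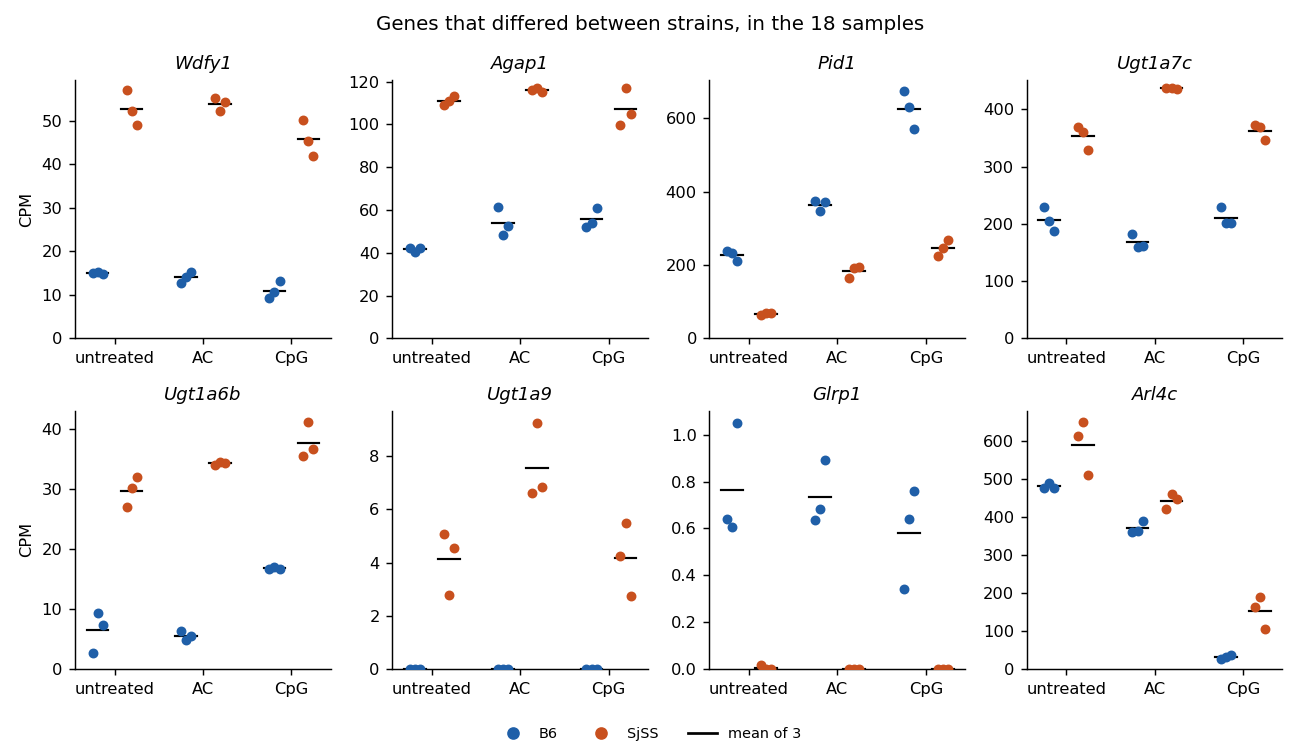
CPM of 8 genes in each of the 18 samples (points, linear axes from 0), with B6 and SjSS side by side for each treatment and the mean of 3 samples as a short line. Wdfy1, Agap1, Pid1 and Ugt1a7c kept the strains apart in every treatment, Ugt1a9 was at 0 in B6, Glrp1 was at or near 0 in SjSS, and Arl4c showed its wide gap with CpG.

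Around Sp100 the strains differed mainly after AC treatment. Of the 7 genes from C130026I21Rik to Cab39, 6 were called higher in SjSS with AC, 1 was called untreated and 1 with CpG, both times A530032D15Rik. Higher calls were 1.3%, 6.24% and 1.82% of all genes tested. The promoter windows of 5 of the genes are printed here, because those of Sp140 and of both Rik genes are near-identical. Whether their transcribed parts share reads was not tested. The windows are RefSeq's on GRCm38.p6, from 250 bases before the start to 50 after it, 5′ to 3′ along the gene. In the first pair, capitals mark a pair of GAAA blocks with 3 bases between them, on either strand. In the other 3, capitals mark the longest run that all 3 share, 146 bases. RefSeq's start of Sp140 lies 325 bases from the start in the count table, and that of Sp110 lies 8 bases from it.
Sp100 (chr1:85649738-85650037, plus strand): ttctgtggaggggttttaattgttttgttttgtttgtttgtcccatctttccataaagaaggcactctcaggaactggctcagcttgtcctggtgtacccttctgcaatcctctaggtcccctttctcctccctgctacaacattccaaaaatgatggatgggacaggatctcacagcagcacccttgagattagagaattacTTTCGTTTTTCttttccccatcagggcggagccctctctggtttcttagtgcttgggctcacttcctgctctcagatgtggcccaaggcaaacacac
Sp110 (chr1:85598761-85599060, minus strand): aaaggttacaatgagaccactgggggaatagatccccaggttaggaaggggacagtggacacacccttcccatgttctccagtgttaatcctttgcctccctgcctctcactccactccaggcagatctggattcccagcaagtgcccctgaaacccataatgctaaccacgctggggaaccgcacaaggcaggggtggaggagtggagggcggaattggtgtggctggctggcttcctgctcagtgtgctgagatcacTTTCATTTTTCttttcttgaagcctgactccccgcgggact
Sp140 (chr1:85600453-85600752, plus strand): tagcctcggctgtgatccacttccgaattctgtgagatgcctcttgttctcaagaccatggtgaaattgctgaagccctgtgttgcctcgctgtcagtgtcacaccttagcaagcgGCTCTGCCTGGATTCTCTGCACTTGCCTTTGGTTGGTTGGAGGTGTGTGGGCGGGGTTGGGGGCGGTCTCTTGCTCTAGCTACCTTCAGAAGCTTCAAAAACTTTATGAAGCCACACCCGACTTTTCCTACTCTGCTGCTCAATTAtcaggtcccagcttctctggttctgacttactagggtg
A530032D15Rik (chr1:85109804-85110103, minus strand): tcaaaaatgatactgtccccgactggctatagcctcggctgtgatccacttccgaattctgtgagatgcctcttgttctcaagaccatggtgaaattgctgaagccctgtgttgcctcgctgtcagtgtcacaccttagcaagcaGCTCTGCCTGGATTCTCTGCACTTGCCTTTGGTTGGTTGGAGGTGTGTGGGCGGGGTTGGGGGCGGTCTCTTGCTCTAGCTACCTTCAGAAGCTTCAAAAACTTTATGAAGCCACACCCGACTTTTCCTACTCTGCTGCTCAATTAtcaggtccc
C130026I21Rik (chr1:85270517-85270816, minus strand): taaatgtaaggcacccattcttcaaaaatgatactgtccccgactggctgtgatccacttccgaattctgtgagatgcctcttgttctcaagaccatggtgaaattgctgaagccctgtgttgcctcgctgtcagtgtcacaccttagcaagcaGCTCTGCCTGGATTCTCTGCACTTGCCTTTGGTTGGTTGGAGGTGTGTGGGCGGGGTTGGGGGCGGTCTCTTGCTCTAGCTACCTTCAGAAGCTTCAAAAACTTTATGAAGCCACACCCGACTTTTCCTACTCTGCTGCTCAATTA

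The windows of Sp140 and A530032D15Rik shared 270 of 271 aligned bases (99.6%), those of Sp140 and C130026I21Rik 254 of 255 (99.6%), and those of A530032D15Rik and C130026I21Rik 279 of 291 (95.9%). Sp100 and Sp110 shared no run longer than 11 bases. The motif searched was GAAA, any 2 bases, GAAA, the core of the interferon-stimulated response element, on both strands. It stood in 4 of the 155 windows of the 130 genes matched by symbol (2.58%), those of Fbxo36, Kif1a, Mroh2a and Ppp1r7, and in 3.44% of all 32851 windows. The form with 3 bases between the blocks, chosen after the windows were seen, was in 4 of the 155 windows, those of Sp100, Sp110 and Ndufa10, and in 2.75% of all. Ndufa10 was not called in any strain comparison. A match is a run of letters and no evidence of a bound factor.

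Sp110, whose human counterpart is linked to resistance against intracellular bacteria, read 39.6, 42.5 and 43.4 CPM in untreated B6 and 54.2, 55.5 and 56.4 in untreated SjSS samples. With AC, B6 read 37.7, 50.5 and 50.7 and SjSS 194, 171 and 199. With CpG the samples read 35.4, 55.5 and 49 against 71.3, 52.9 and 78.9. The AC groups lay far apart and the CpG groups overlapped. The log2 difference was 2.02 ± 0.15 with AC (adjusted p = 1.42e-09, edgeR), against 0.40 ± 0.15 untreated and 0.54 ± 0.15 with CpG (adjusted p = 0.0589 and 0.0129, edgeR). The interaction, the AC difference minus the untreated one, was 1.62 ± 0.21 (adjusted p = 4.71e-06, edgeR).

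Sp140, a family member that restrains type I interferon responses in mice, changed direction. It was lower in untreated SjSS samples, at 21.4, 18.8 and 19.3 CPM against 34.4, 35.2 and 33.2 in B6, and lower with CpG, at 20.8, 15.2 and 23.7 against 38.4, 51.3 and 43.6. With AC it was higher, at 114, 114 and 121 against 37.1, 39.9 and 38.8 CPM. None of the 3 pairs of groups overlapped. The log2 differences were -0.79 ± 0.12, -1.15 ± 0.12 and 1.59 ± 0.11 for untreated, CpG and AC (adjusted p 9.74e-05, 1.28e-06 and 8.98e-10, edgeR), the first 2 short of the fold threshold. The interaction with AC was 2.38 ± 0.16 (adjusted p = 1.45e-09, edgeR).

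Sp100, the founding component of these nuclear bodies beside PML, read 64.9, 67.3 and 67.3 CPM in untreated B6 and 96.2, 101 and 92.6 in untreated SjSS samples (0.54 ± 0.13, adjusted p = 0.00572, edgeR). With AC it read 85, 108 and 106 against 266, 254 and 294 CPM (1.44 ± 0.13, adjusted p = 2.04e-08, edgeR). With CpG the groups overlapped, at 105, 146 and 119 against 151, 110 and 163 CPM (0.20 ± 0.13, adjusted p = 0.286, edgeR). Its interaction with AC was 0.90 ± 0.18 (adjusted p = 0.000525, edgeR), below the fold threshold. In B6, AC treatment moved Sp110 and Sp140 by 0.15 ± 0.15 and 0.17 ± 0.11, neither past the test, and raised Sp100 by 0.58 ± 0.13 (adjusted p = 0.00114, edgeR). In SjSS it raised the 3 genes by 1.77 ± 0.15, 2.55 ± 0.12 and 1.49 ± 0.13 (adjusted p 4.57e-09, 7.88e-13 and 6.88e-09, edgeR).

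A630001G21Rik, next to Sp100, was at 57.5 to 61.5 CPM in SjSS AC samples and 20.9 to 23.6 in B6 AC samples (1.40 ± 0.10, adjusted p = 5.84e-10, edgeR). Untreated it was at 14.7 to 16.7 against 16.6 to 18.2 CPM, and the interaction was 1.54 ± 0.14 (adjusted p = 5.23e-08, edgeR). A530032D15Rik read 1.38, 1 and 1.1 CPM in untreated B6 and 5.01, 4.73 and 5.51 in untreated SjSS samples. With AC it read 1.47, 1.51 and 1.31 against 28.3, 27.2 and 32.7 CPM, and with CpG 1.57, 1.38 and 0.978 against 4.27, 4 and 4.84. The strains were apart in every treatment, by 2.12 ± 0.15, 4.35 ± 0.15 and 1.73 ± 0.16 on the log2 scale (adjusted p 1.47e-08, 3.73e-14 and 3.09e-07, edgeR), and the AC interaction was 2.23 ± 0.21 (adjusted p = 1.08e-07, edgeR). C130026I21Rik, whose gene model spans A530032D15Rik on the same strand, was at 3.1 to 4.01 CPM in B6 and 16.9 to 24.7 CPM in SjSS with AC (2.56 ± 0.23, adjusted p = 2.16e-08, edgeR) and overlapped between strains without AC. Cab39, the seventh gene, was at 242 to 306 CPM throughout and was called in none of the 3.

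Rows of the table that are not protein-coding filled the stretch between C130026I21Rik and Sp110, and 15 of them, mostly pseudogenes, were looked at after their values were seen. Their summed level was 2.21 to 2.71 CPM in untreated B6 and 13.2 to 16.5 CPM in untreated SjSS samples, 4.55 to 6.07 against 84.2 to 95.8 CPM with AC, and 3.08 to 5.45 against 15.3 to 27.8 CPM with CpG. Of the 14 that could be tested, 11, 13 and 9 were called higher in SjSS untreated, with AC and with CpG, and 0 lower by edgeR. The share of all genes tested that was called higher was 1.3%, 6.24% and 1.82%. Several of these rows overlap the gene model of C130026I21Rik, so their calls may not be separate results. Gm16092, a lincRNA, had 0 counts in all 9 B6 libraries and 99, 516 and 90 counts over the SjSS groups, at least 38.4-fold, 195-fold and 31-fold higher by the floor of 3 counts. Antisense rows also lie between the Sp genes. Gm17017, which overlaps Sp140 and Sp100, was at 1.53 to 1.81 CPM in B6 and 4.65 to 6.56 CPM in SjSS with AC (1.74 ± 0.23, adjusted p = 5.44e-06, edgeR) and was called in no other strain comparison. Gm10552, with 1 to 3 counts over each B6 group, was called higher in all 3, with ratios of 18.6 (95% counting interval 4.75 to 160) untreated, 61.1 (10.5 to 2460) with AC and 10.3 (3.22 to 53) with CpG. Its untreated call was lost without SjSS control replicate 1, which held 23 of the 32 SjSS counts, and its CpG call without B6 CpG replicate 2 or 3 or SjSS CpG replicate 1 (log2 differences of 2.81, 2.8, 2.67 and 3.04). Gm16094, at most 0.32 CPM, was not tested.

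**Figure D4:**
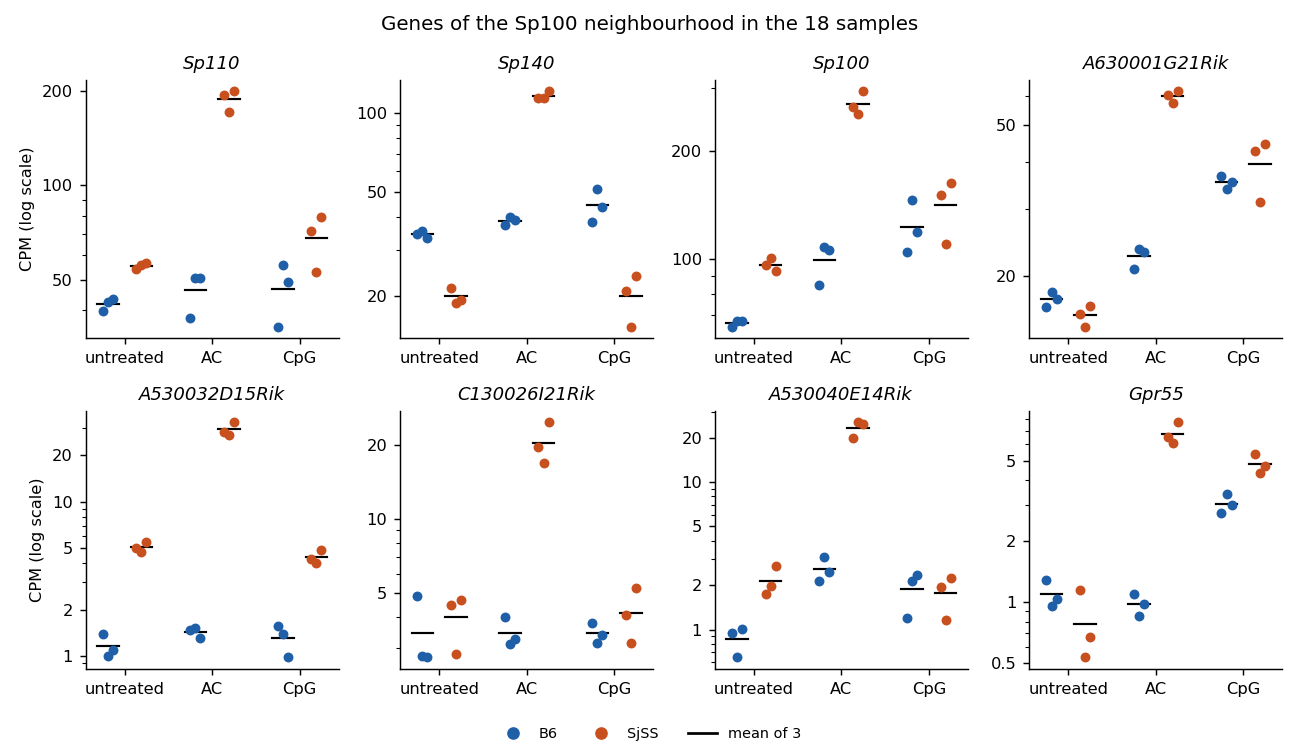
CPM on log axes, which differ between panels, of Sp110, Sp140, Sp100, A630001G21Rik, A530032D15Rik, C130026I21Rik, Gpr55 and the antisense row A530040E14Rik in each of the 18 samples, with the mean of 3 samples as a short line. SjSS AC samples were the highest of the 18 in all 8 panels, Sp140 was lower in SjSS without AC, and only A530032D15Rik was called in all 3 treatments.

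Genes of the same pathway on other chromosomes were read beside the Sp100 family. Both lists were drawn up with earlier results of these data known, so their counts are a description. Of all genes tested, 1.3% were called higher in SjSS untreated, 6.24% with AC and 1.82% with CpG. By adjusted p alone these shares were 9.04%, 24% and 10.2% higher, and 10.6%, 25.5% and 9.57% lower. Of 11 partners of these nuclear bodies, 2 were called higher in SjSS with AC, and 0 untreated and 0 with CpG (by edgeR's adjusted p alone, 5 were higher and 2 lower with AC, and 1 was lower in each of the others). The 2 lower ones with AC were Atrx (-0.38 ± 0.09) and Trim33 (-0.35 ± 0.07). The 2 called, chosen by the call, were Daxx, a histone chaperone, at 75.5 to 80.4 CPM in B6 and 496 to 512 CPM in SjSS with AC, and Pml, the scaffold of the bodies, at 50.4 to 54.8 against 215 to 243 CPM. Of 13 interferon-stimulated genes, 12 were called higher with AC, 1 untreated and 0 with CpG, with median log2 differences of 3.77, 1.02 and -0.312 beside medians of -0.0459, -0.00894 and 0.00826 over all genes tested. By adjusted p alone all 13 were higher untreated and 1 was lower with CpG. Isg15 was at 59.4 to 67.2 CPM in B6 and 654 to 712 CPM in SjSS with AC. The Sp100 family medians were 1.59, 0.405 and 0.203. In the B6 response to AC, 10 of the 13 interferon-stimulated genes and 0 of the 3 Sp100 family genes were called (medians 2.93 and 0.172), and by edgeR's adjusted p alone all 13 and 1 of the 3 (Sp100) were higher. In the SjSS response all 13 and all 3 were called (5.53 and 1.77). The called share of all genes tested, in either direction, was 4.47% in the B6 response and 12.9% in the SjSS response. By adjusted p alone 38.3% of all genes tested changed in the B6 response, in either direction. A dependence between the lists was not tested.

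The difference between the AC and the untreated strain difference was called for 14 genes (9.72%, against 7.53% of all genes tested), 11 in the direction of higher SjSS levels and 3 of lower (4.76% and 2.77% of all genes). The share was near that over all genes. By adjusted p alone 69 interactions passed (47.9% against 37.9%), 32 and 37 in the 2 directions (19.6% and 18.3% of all genes). Of the 11, 5 were Sp110, Sp140, A630001G21Rik, A530032D15Rik and C130026I21Rik. The widest interaction was that of Gpr55, a receptor for lysophosphatidylinositol. It read 1.09, 0.851 and 0.981 CPM in B6 and 6.51, 6.12 and 7.72 in SjSS with AC, and 1.28, 0.96 and 1.03 against 1.14, 0.532 and 0.671 untreated. The AC groups were well apart and the untreated groups overlapped. The AC difference was 2.80 ± 0.20 (adjusted p = 1.31e-09, edgeR) and the interaction 3.25 ± 0.30 (adjusted p = 9.49e-08, edgeR).

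Dusp28, an atypical phosphatase gene 7.26 Mb from Sp100, read 3.73, 4.41 and 3.34 CPM in B6 and 13.5, 17 and 15.7 in SjSS with AC, with 4.36 to 4.8 against 4.37 to 6.02 CPM untreated. Its interaction was 1.77 ± 0.21 (adjusted p = 2.48e-06, edgeR). D1Ertd622e, an uncharacterised gene near the far end of the interval, read 92.2, 90 and 93.8 CPM in B6 and 207, 220 and 222 in SjSS with AC, and was lower in SjSS untreated, at 77.8 to 95.3 against 98.7 to 112 CPM. Its interaction was 1.53 ± 0.09 (adjusted p = 3.17e-10, edgeR), although the AC difference of 1.23 ± 0.07 itself missed the fold threshold. Epha4, an ephrin receptor, and Wnt6, a secreted signalling ligand, were low at rest. Epha4 was at 1.98 to 2.57 against 4.37 to 6.84 CPM with AC, and lower in SjSS with CpG, at 15.7 to 21.7 against 7.49 to 13.6 CPM (-0.83 ± 0.19, adjusted p = 0.00464, edgeR). Its interaction with AC was 2.13 ± 0.43 (adjusted p = 0.00062, edgeR), and the AC call itself was lost without B6 AC replicate 3 (1.28) or SjSS AC replicate 3 (1.21). Wnt6 was at 0.596 to 1.07 against 1.4 to 1.75 CPM with AC and at 11.9 to 13.8 against 6.07 to 8.13 CPM with CpG, with an AC interaction of 1.44 ± 0.34 (adjusted p = 0.00251, edgeR). That call was lost without B6 AC replicate 1 (1.29) and without SjSS control replicate 1 (1.17).

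Igfbp5, a binding protein for insulin-like growth factors, was the clearest of the genes with a negative interaction. It read 2.78, 1.95 and 2.16 CPM in B6 and 0.672, 0.694 and 0.74 in SjSS with AC, and 0.737, 0.459 and 0.657 against 0.571, 0.651 and 0.653 untreated. AC treatment raised it in B6 by 1.88 ± 0.29 (adjusted p = 3.58e-05, edgeR), and in SjSS the change was 0.17 ± 0.31 (adjusted p = 0.662, edgeR). The AC strain difference was -1.71 ± 0.29 and the interaction -1.71 ± 0.42 (adjusted p 7.49e-05 and 0.00346, edgeR). With CpG it was also lower in SjSS, at 0.266 to 0.625 against 0.0675 to 0.198 CPM (-1.54 ± 0.40, adjusted p = 0.00993, edgeR), a call lost without B6 CpG replicate 1 (-1.15) or SjSS CpG replicate 1 (-1.18). Among the others called in the interaction, Fam132b (erythroferrone, 1.76 ± 0.65), Sned1 (-1.62 ± 0.55) and Ano7 (-2.15 ± 0.77), stayed at or under 1.3 CPM in every sample and lost the call in several of the refits that left out 1 sample.

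**Figure D5:**
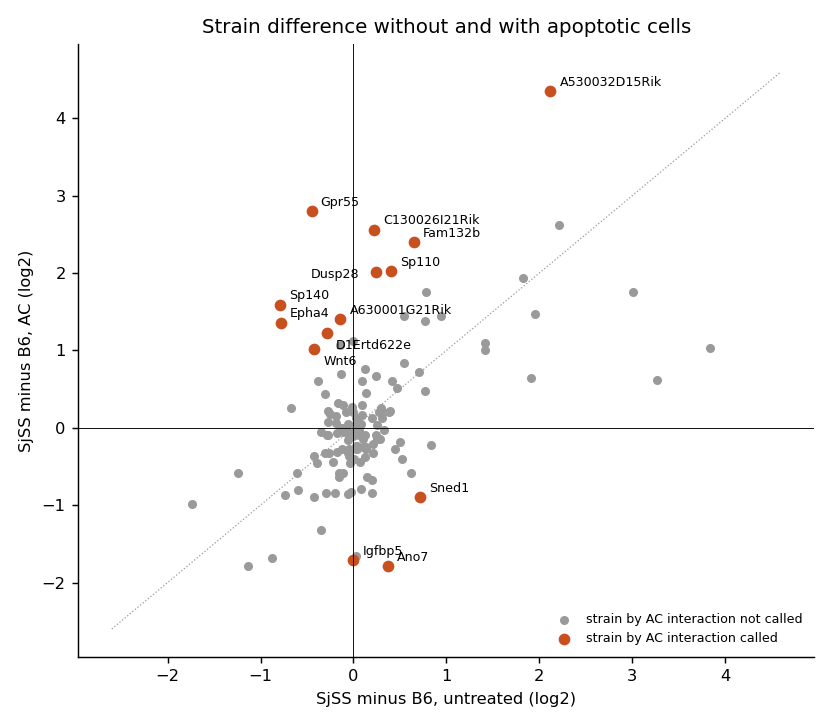
Log2 difference of SjSS over B6 with AC (vertical axis) against the same untreated (horizontal axis) for 141 genes, leaving out Ugt1a8, Ugt1a9 and Glrp1, which were at or near 0 counts in 1 strain. The dotted line marks equal differences, and the 14 genes called in the interaction, in colour, lie away from it, 11 above and 3 below.

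A further 4 genes were called with AC and not in the interaction. Utp14b, a retrogene for a ribosome-assembly protein, was at 5.2 to 5.48 CPM in B6 and 1.2 to 2 CPM in SjSS with AC (-1.68 ± 0.18, adjusted p = 3.47e-07, edgeR), and it lies within Acsl3 on the same strand. Tuba4a, a tubulin, was at 29.7 to 37.9 against 12.4 to 14.7 CPM (-1.32 ± 0.13, adjusted p = 7.34e-08, edgeR). Irs1, the docking protein of the insulin receptor, was at 0.377 to 0.473 against 0.93 to 1.41 CPM (1.45 ± 0.32, adjusted p = 0.000971, edgeR). Obsl1, a cytoskeletal adaptor, was at 0.334 to 0.624 against 1.19 to 1.91 CPM (1.76 ± 0.42, adjusted p = 0.00176, edgeR). In all 4 the AC groups did not overlap.

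The interaction with CpG was called for 1 gene (0.694%, against 0.614% of all genes, 0.285% higher and 0.329% lower). By adjusted p alone 11 passed (7.64% against 5.85%), 7 and 4 in the 2 directions (3.23% and 2.62% of all genes). Arl4c, an Arf-like GTPase whose gene is a target of the liver X receptors, read 476, 490 and 478 CPM in untreated B6 and 613, 650 and 512 in untreated SjSS samples. With CpG it read 26.8, 31.7 and 38.1 against 164, 189 and 106 CPM. CpG lowered it in both strains, by 3.90 ± 0.17 on the log2 scale in B6 and 1.95 ± 0.15 in SjSS (adjusted p 3.24e-13 and 2.13e-09, edgeR), and the strain difference with CpG was 2.25 ± 0.16 (adjusted p = 9.51e-09, edgeR). Untreated and with AC the strain difference was 0.30 ± 0.15 and 0.25 ± 0.15, and the interaction with CpG was 1.95 ± 0.21 (adjusted p = 2.47e-05, edgeR). Ramp1, which pairs with the receptor for calcitonin gene-related peptide, was lower in SjSS with CpG, at 0.978 to 1.15 against 0.315 to 0.494 CPM (-1.39 ± 0.29, adjusted p = 0.00178, edgeR), a call lost without SjSS CpG replicate 1 (-1.25). Untreated it was at 3.71 to 4.32 against 1.47 to 1.96 CPM (-1.24 ± 0.22, adjusted p = 0.000625, edgeR), just short of the fold threshold.

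In all, 19 of the 144 genes passed the p threshold in opposite directions in a pair of strain comparisons, where 9.91% of all genes tested did so, and none passed the fold rule in both. Sp140, D1Ertd622e, Epha4 and Wnt6 were higher in SjSS with AC and lower in another treatment. Inpp5d, which encodes the inositol phosphatase SHIP1, a brake on receptor signalling in myeloid cells, was the reverse. It was lower in SjSS with AC, at 295 to 321 against 376 to 402 CPM (-0.32 ± 0.05), and higher untreated, at 470 to 516 against 410 to 453 CPM (0.21 ± 0.05), and with CpG, at 255 to 273 against 216 to 226 CPM (0.25 ± 0.06). The adjusted p was 7.55e-05, 0.0122 and 0.0031 (edgeR). Tns1, a focal adhesion protein, did likewise, at -0.59 ± 0.09 with AC, 0.62 ± 0.10 untreated and 0.95 ± 0.10 with CpG.

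By role, 89 of the 144 genes were in lists drawn up by gene function, with earlier results of these data known. The called share of all genes tested was 2.01% untreated, 8.93% with AC and 2.61% with CpG. Of 9 immune receptor and signalling genes, 1, 2 and 2 were called untreated, with AC and with CpG, all of them Htr2b, Gpr55, Irs1 or Ramp1. Of 12 autophagy and vesicle traffic genes Wdfy1 alone was called, in all 3. Of 10 matrix, adhesion and cytoskeleton genes, 1, 3 and 2 were called (Fn1, Igfbp5, Tuba4a and Obsl1). None was called in any of the 3 among 15 genes of lipid, sugar and nucleotide metabolism, 18 of ubiquitin and proteolysis, 11 of DNA repair and chromatin and 11 of RNA and translation. By edgeR's adjusted p alone, those 4 lists gave 2, 5, 0 and 2 genes untreated. They gave 11, 10, 5 and 4 with AC, and 6, 4, 3 and 0 with CpG. By that rule 19.6%, 49.4% and 19.7% of all genes tested differed. The differences in these lists stayed within the fold threshold, and included 1.07 ± 0.15 for Cyp27a1 and -0.85 ± 0.10 for Zfp142 with AC. Psmd1, Cul3 and Trip12, the highest of the ubiquitin and proteolysis list, differed between strains by at most 0.29 on the log2 scale. Hjurp, a loader of centromeric histone, was lower in SjSS with AC at 29.4 to 29.7 against 48.6 to 57.4 CPM (-0.84 ± 0.08, adjusted p = 3.9e-08, edgeR), short of the fold threshold.

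The response to treatment was also counted within each strain. AC treatment gave 5 calls among the 144 genes in B6 (3.47%, against 4.47% of all genes) and 19 in SjSS (13.2%, against 12.9%). CpG gave 19 in B6 (13.2%, against 12.7%) and 16 in SjSS (11.1%, against 9.26%). These shares were near those over all genes tested.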

How the data were processed

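RNA of 18 BMDM samples was sequenced as paired ends by the submitters. According to the methods and the submitters' processing notes, the authors aligned reads with STAR to mm10 and estimated gene counts with Partek's E/M model. The deposited values are expected counts (estimated counts), of which 41.1% are not whole, and they were rounded here. Whether strand was used is not given in the sources used here.

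Testing used edgeR 4.0.16 in R 4.3.3: TMM scaling, filterByExpr, 1 mean per group over all 18 samples and the quasi-likelihood test, with Benjamini-Hochberg adjustment over 15789 genes. SE is the log2 fold change over the square root of F. CPM uses effective library sizes. The study used 3 mice per strain, and the labels do not tie samples to mice, so p-values measure the spread between these samples. Bounds and counting intervals cover counting error only. Promoter windows were aligned with Biopython, and scripts were tested on simulated counts.

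Genes were named by rule: called the same way in all 3 strain comparisons, the 5 largest non-overlapping called increases and decreases in each, called in an interaction, within the Sp100 to Sp110 cluster, first or last called along the interval, or among the 3 highest of a role list. Htr2b, Irs1, Obsl1, Tuba4a, Ugt1a7c, Ugt1a2, Cab39, Gm16092, Isg15, Daxx and Pml were added after their values were seen. The members and lists were chosen with earlier results of these data known. The gene left out by the rule is not reported here. Alternatives were DESeq2 1.42.0, its size factors, other filters and thresholds, a replicate block, the compared groups alone and each sample left out.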

Additional observations from a re-analysis of the deposited data

Results flagged for a closer look

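For 15 genes the strain difference itself differed between treatments, by an interaction term in the edgeR fit that passed both thresholds. The value in each case is the strain difference (SjSS over B6, log2) with treatment minus that without it.

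With AC, the interaction was positive around Sp100 for Sp140 (2.38), C130026I21Rik (2.34), A530032D15Rik (2.23), Sp110 (1.62) and A630001G21Rik (1.54). Elsewhere in the interval it was positive for Gpr55 (3.25), Epha4 (2.13), Dusp28 (1.77), Fam132b (1.76), D1Ertd622e (1.53) and Wnt6 (1.44). It was negative for Ano7 (-2.15), Igfbp5 (-1.71) and Sned1 (-1.62). With CpG it was called for Arl4c alone (1.95). The values of Fam132b, Sned1 and Ano7 rest on levels at or under 1.3 CPM.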

How the results depend on the processing

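Counts are of genes called higher and lower in SjSS. Without the fold threshold they became 26 and 20 untreated, 41 and 43 with AC, 32 and 29 with CpG, 12 and 6 in all 3, 32 and 37 in the AC interaction and 7 and 4 in the CpG interaction. With a log2 threshold of 2 they were 7 and 1, 9 and 1, 6 and 2, 2 higher in all 3, 5 and 1, and 0 higher in the CpG interaction. With a minimum sum of 1800 (118 genes) they were 7 and 1 untreated, 2 lower with AC, and 6 and 1 with CpG. They were 0 lower in all 3 and 0 lower in the AC interaction. The higher counts with AC, in all 3 and in the AC interaction are not given at this sum. Genes that had been in them dropped out too, among them Obsl1, Irs1, Ugt1a1 and Fam132b. Setting aside the Sp100 neighbourhood and Ugt1a genes, chosen after seeing the data, left 4, 7, 5, 1 and 6 higher, in the same order. Among windows of at least 10 genes, the highest share of 26.3%, 34.2% and 23.7% became 57.1%, 58.3% and 42.9% in 2 Mb windows and 52.6%, 68.4% and 55.3% without the fold threshold.

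Leaving out each sample gave 8 to 11 higher and 2 to 3 lower untreated (8 without B6 control replicate 2), 17 to 18 and 4 to 7 with AC (4 without SjSS AC replicate 1), 7 to 11 and 2 to 5 with CpG (7 without B6 CpG replicate 1 or 2, 2 without SjSS CpG replicate 1), 4 to 5 and 1 to 2 in all 3 (2 without B6 control replicate 3), 10 to 11 and 1 to 4 in the AC interaction (1 without SjSS control replicate 1) and 1 to 2 and 0 to 1 in the CpG interaction (2 without SjSS control replicate 1 or 2 or SjSS CpG replicate 3, 1 lower without B6 control replicate 2). Of 65 calls of named genes, all kept direction and threshold under DESeq2, its size factors and 10 counts in 3 samples. Without a filter the Ano7 interaction was lost, and with the compared groups alone the Igfbp5 and Fam132b CpG calls were lost. The cause was not tested.

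With the replicate number as a block, the counts were 11 and 2, 18 and 6, 10 and 5, 5 and 1, 11 and 3, and 1 and 0, as without it. With each gene's group mean subtracted from its log CPM, same-numbered samples within a strain correlated at 0.0198 to 0.264 over 18 pairs. These are correlations of the remaining deviations and not of whole samples. By this measure 16 of 18 correlated best with their own number (a hint from the data, not the design), and not every pair was over 0.1. With the number as a replicate block within each strain, added after seeing the data, the AC interaction gave 11 and 4, and the CpG interaction 1 and 1, and all 16 interaction calls of named genes remained.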
